A study of Arabidopsis thaliana with 4 samples.

Results

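The 4 nuclear photosystem genes PSAN, PSAE-1, PSBW and LHCB4.1 are described here in Arabidopsis mesophyll protoplasts, wall-less cells prepared from leaves with enzymes. Members were chosen by gene name, as the probe sets that carry 1 of these names and no other. Each name had 1 such probe set, which makes 4 of the 13350 genes with a probe set of a single name, on an array of 22746 probe sets besides its controls. All 4 passed the filter on low signals, which kept 13648 probe sets. The study compared protoplasts transfected with a plasmid that expresses KIN10 (AT3G01090) with protoplasts given control plasmid DNA, and RNA was taken after 6 h in the light. KIN10 is a catalytic subunit of SnRK1, the plant relative of the yeast kinase SNF1. Each group has 2 arrays, 1 from each of 2 experiments. By their labels the groups differ in the plasmid alone, and share the leaf source, the protoplast isolation and a transfection with 1 mg of DNA. The labels give no genotype, ecotype or plant age, and neither the promoter that drives KIN10 nor the content of the control plasmid. Expression of KIN10 was transient. Within an experiment both transfections came from 1 pool of protoplasts from 36 plants. The experiments differed in operator, plants, soil, growth chamber, DNA and array facility, so these cannot be told apart from each other.

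Photosystem II takes electrons from water and photosystem I passes them on to ferredoxin, with the cytochrome b6f complex and plastocyanin between them. Reaction centre proteins are mostly encoded in the plastid, whereas the antenna proteins and many small subunits, among them these 4, are encoded in the nucleus, made in the cytosol and imported into the chloroplast. SnRK1 is known as a kinase that is active when energy is short and that shifts transcription from growth towards the use of stored carbon. PSAN (AT5G64040, probe set 247320_at) encodes a subunit on the lumen side of photosystem I, where plastocyanin docks. PSAE-1 (AT4G28750, 253738_at) encodes a stromal subunit of photosystem I at the ferredoxin docking site. PSBW (AT2G30570, 267526_at) encodes a small membrane subunit that stabilises the complexes of photosystem II with its antenna. LHCB4.1 (AT5G01530, 251082_at) encodes a minor antenna protein that links the photosystem II core to the major light-harvesting trimers.

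With KIN10 the signal of all 4 genes was above that of control DNA in the same experiment, in both experiments, except for LHCB4.1 in experiment 1 when the arrays were scaled on spiked-in control transcripts. PSAN was 3.00-fold higher (log2 change 1.59 ± 0.33, SE, n = 2 arrays per group, limma adjusted p = 1.69e-05) and was the gene of the 4 that passed the test. PSAE-1 was at 1.79-fold (0.84 ± 0.34, limma adjusted p = 0.0507), next to the threshold of 0.05. LHCB4.1 was at 1.55-fold (0.63 ± 0.35, limma adjusted p = 0.168) and PSBW at 1.53-fold (0.62 ± 0.34, limma adjusted p = 0.174). Of all 13648 probe sets tested, 14.7% were called higher and 15.5% lower. A change above 0 in both experiments was shared by 39.0% of the tested probe sets. In these pooled cells, more cells with a transcript and more of it per cell cannot be told apart, and the arrays were scaled to equal means, so each signal is relative to the rest of its array.

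These tests take the experiment as a block, as the design describes control and KIN10 transfections as pairs. Without the block 0.894% of probe sets were called higher. None of the 4 genes was called there, and none had an unadjusted p under 0.05, with a limma adjusted p of 0.619 for PSAN, 0.818 for PSAE-1, 0.876 for LHCB4.1 and 0.878 for PSBW. In fits on 3 arrays, which have no block, the share called higher was 0.432% without control 1, 0.645% without control 2, 5.11% without KIN10 1 and 0.938% without KIN10 2. PSAN then had a log2 change of 0.57 without control 1, 2.60 without control 2, 2.96 without KIN10 1 and 0.22 without KIN10 2, and of these fits only the one without KIN10 1 called it (limma adjusted p = 0.0345). With 2 arrays against 2 and the pairs ignored, an exact permutation test of a single gene cannot give a two-sided p below 0.333. The calls thus rest on the variance pooled across probe sets.

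PSAN, of photosystem I, had a deposited signal of 2751.5 with control DNA and 6869.1 with KIN10 in experiment 1. In experiment 2 the signals were 7869.4 with control DNA and 24284.9 with KIN10. KIN10 was higher within each experiment, but the groups overlapped, since KIN10 array 1 lay below control array 2. Among the 22746 probe sets, ranked from the highest signal, PSAN moved up from rank 3913 with control DNA to rank 1475 with KIN10 in experiment 1, and from 1365 to 306 in the second experiment. In experiment 1 this was a move from the 82.8th to the 93.5th percentile, and in experiment 2 one from the 94.0th to the 98.7th. A rank cannot be altered by a single scaling factor per array. It was higher with KIN10 in both experiments for each of the 4 genes, as for 38.0% of the tested probe sets.

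The log2 change of PSAN, after each array was centred on its median, was 1.23 in experiment 1 and 1.94 in experiment 2. As deposited the fold was 2.50 and 3.09. In experiment 1 5.41% of the tested probe sets had a higher change, and in experiment 2 3.97%. PSAN also differed between the experiments with control DNA alone, where it was 2.86-fold higher in experiment 2 as deposited. On the centred scale this difference between the control arrays (log2 2.03) was larger than that of 98.6% of the probe sets kept, whose median was 0.55 in size. The difference between the control arrays was thus larger than the change with KIN10 in either experiment on the centred scale. As deposited, that difference (2.86-fold) was above the change in experiment 1 (2.50-fold) and below that in experiment 2 (3.09-fold).

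PSAE-1, the other gene of photosystem I, had signals of 12540.4 with control DNA and 20979.2 with KIN10 in experiment 1, and of 19319.0 and 31434.5 in experiment 2. As deposited both KIN10 arrays lay above both control arrays, as they did for 21.9% of the tested probe sets. After centring KIN10 array 1 (log2 5.33 above the array median) lay below control array 2 (5.81), so that the groups overlapped. By rank it stood at 715 with control DNA and 326 with KIN10 in experiment 1, and at 387 and 181 in experiment 2, with both KIN10 arrays ranked above both control arrays, which held for 25.5% of the tested probe sets. The change was nearly equal in both experiments as deposited, at 1.67-fold and 1.63-fold, and was 0.65 and 1.02 on the centred log2 scale. The 95% interval of the mean change ran from 0.16 to 1.51. In the fits on 3 arrays the change ran from 0.084 without KIN10 array 2 to 1.59 without KIN10 array 1, and none of the 4 such fits called it.

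PSBW, of photosystem II, had signals of 16862.1 and 28858.0 with control DNA and KIN10 in experiment 1, and of 15664.5 and 18398.3 in experiment 2. Both KIN10 arrays lay above both control arrays as deposited and also after centring, where this held for 17.7% of the tested probe sets. The rank moved from 465 to 175 in experiment 1 and less far, from 551 to 492, in experiment 2, and by rank the groups overlapped. As deposited the fold was 1.71 in experiment 1 and 1.17 in experiment 2, whereas after centring the log2 changes were 0.69 and 0.55. How alike the experiments were for PSBW therefore depended on the scaling, and across 7 scalings the log2 change in experiment 2 ran from 0.10 (quantile normalization) to 0.55. The 95% interval of the mean change was -0.06 to 1.29.

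LHCB4.1 had signals of 24361.2 and 25389.9 on control arrays 1 and 2, which differ 1.04-fold, and of 30411.7 and 41795.5 on KIN10 arrays 1 and 2. As deposited both KIN10 arrays were above both control arrays, as for 21.9% of the tested probe sets. After centring KIN10 array 1 (log2 5.87) lay below control array 2 (6.21). The rank of LHCB4.1 was 215 and 208 with control DNA and 156 and 67 with KIN10. By rank the groups thus did not overlap, which held for 25.5% of the tested probe sets. The centred log2 change was 0.23 in experiment 1 and 1.04 in experiment 2, and on the spike-in scale it was -0.23 in experiment 1. The 95% interval of the mean change was -0.05 to 1.32. On 3 arrays without the block, the change was -0.056 when KIN10 array 2 was left out and 1.32 when KIN10 array 1 was.

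**Figure D1:**
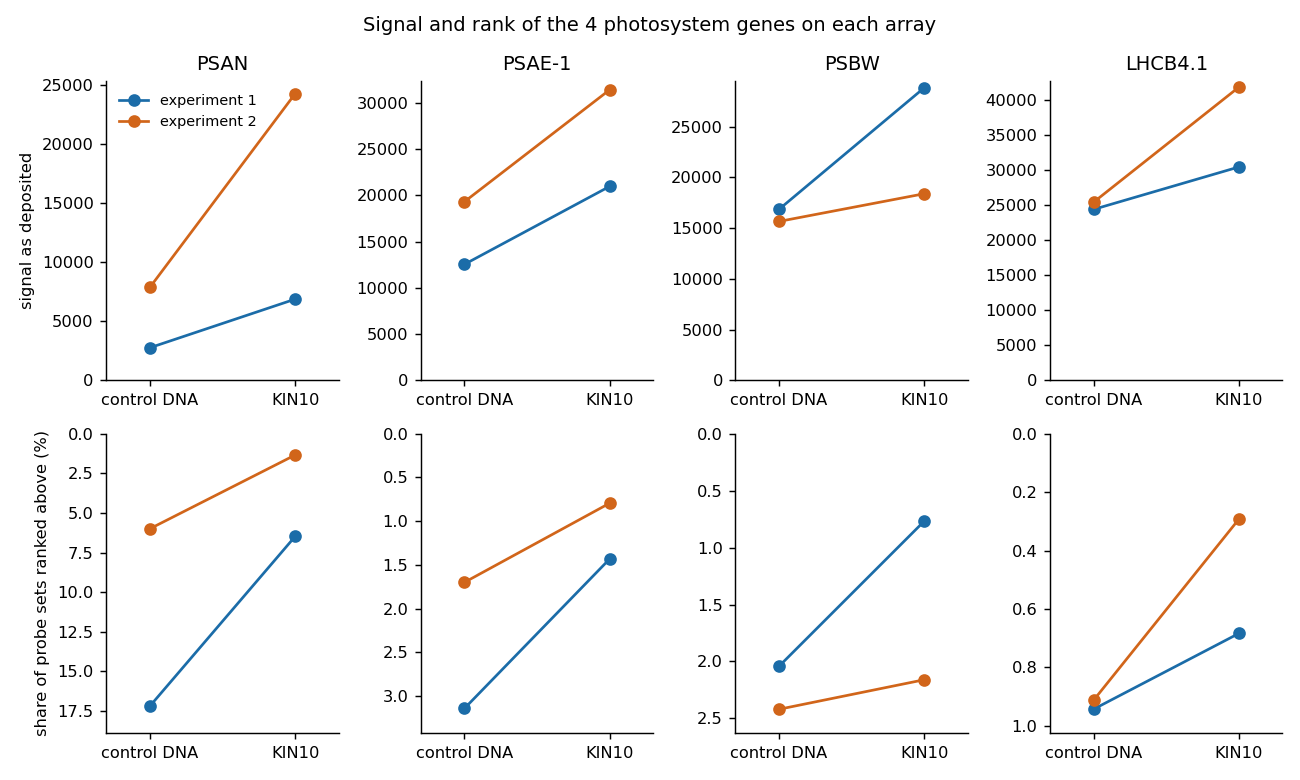
Deposited signal (top) and the share of probe sets ranked above, in percent (bottom, with the highest rank at the top), for PSAN, PSAE-1, PSBW and LHCB4.1 on the control and KIN10 array of experiment 1 (blue) and experiment 2 (orange), 1 point per array. Every line goes up from control DNA to KIN10, and for PSAN the blue KIN10 point (6869.1) lies below the orange control point (7869.4).

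The difference between the changes of a pair of genes on the same arrays does not depend on a scaling factor per array. The change of PSAN exceeded that of PSAE-1 by 0.58 in experiment 1 and 0.92 in experiment 2 on the log2 scale. It exceeded that of PSBW by 0.54 and 1.39, and that of LHCB4.1 by 1.00 and 0.91. PSAN thus had the highest change of the 4 in both experiments. The other 3 had no common order. PSBW minus LHCB4.1 was 0.46 in experiment 1 and -0.49 in experiment 2, and PSAE-1 minus PSBW was -0.03 and 0.47. These differences have 2 values each and were not tested.

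All 4 genes were among the brightest 10% of the tested probe sets by mean signal. In that group the median centred log2 change was -0.08 in experiment 1 and 0.35 in experiment 2, against -0.06 and 0.13 over all tested probe sets. Of the 1365 probe sets in it, 18.0% were called higher and 12.8% lower. Except for PSBW, the genes also had the higher centred change in experiment 2. The part of the signal level in their changes was not tested. After cyclic loess normalization, which removes trends with signal, PSAN stood at 1.48 (limma adjusted p = 0.000813) and PSAE-1 at 0.66 (limma adjusted p = 0.00975), with 15.7% of all probe sets called higher. PSBW at 0.45 (limma adjusted p = 0.0932) and LHCB4.1 at 0.43 (limma adjusted p = 0.0527) were not called.

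**Figure D2:**
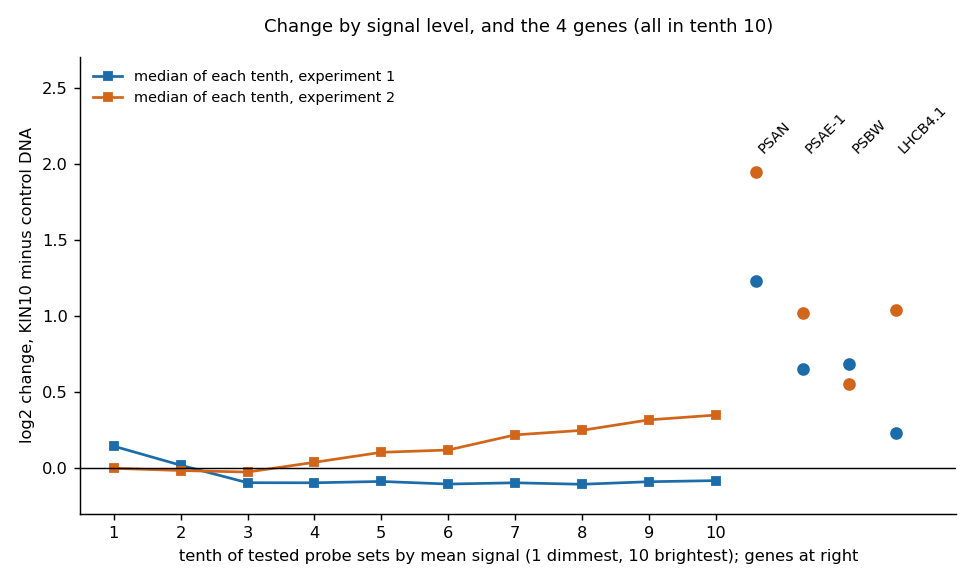
Median log2 change (KIN10 minus control DNA, median-centred) of the tested probe sets in 10 groups of rising mean signal, for experiment 1 (blue squares) and experiment 2 (orange squares), with the changes of the 4 genes as circles at right. The medians of experiment 2 reach 0.35 in the brightest group and those of experiment 1 end at -0.08, and all 8 circles lie above the median of that group in their experiment.

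Calls for PSAE-1, PSBW and LHCB4.1 depended on how the arrays were scaled and how the variance was modelled. PSAE-1 was called higher in 7 of the 11 fits that kept the block, PSBW and LHCB4.1 each in 2 and PSAN in 11. Among these fits the share of all probe sets called higher was 15.0% with an offset added to each signal, 14.7% with a robust prior, 13.2% without the intensity trend and 15.2% after quantile normalization, and PSAE-1 was called in each of them. It was 10.5% with the filter at the 20th percentile and 7.43% with no filter, where PSAE-1 was not called (limma adjusted p = 0.0928 and 0.228). As deposited, with 13.8% of all probe sets called higher, all 4 genes were called, with PSAE-1 at 0.72 (limma adjusted p = 0.00275), LHCB4.1 at 0.52 (limma adjusted p = 0.0223) and PSBW at 0.50 (limma adjusted p = 0.0381). Centring on the probe sets kept by the filter also called all 4, with 16.6% of all probe sets called higher. In those fits the SE of PSAE-1 was 0.14 and 0.17, against 0.34 on the median-centred values. The prior of the variance, which sets how far each SE is drawn to a common trend, had 1311 degrees of freedom on the median-centred values, 9.05 as deposited, 9.67 centred on the kept probe sets, 8.08 after quantile and 6.10 after cyclic loess normalization. On the scale of the spike-ins the median of all tested probe sets was -0.34, and 6.16% were called higher. There PSAN stood at 1.21 (limma adjusted p = 0.0354), whereas PSAE-1 at 0.46, LHCB4.1 at 0.26 and PSBW at 0.24 did not pass, with limma adjusted p-values of 0.529, 0.747 and 0.766.

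**Figure D3:**
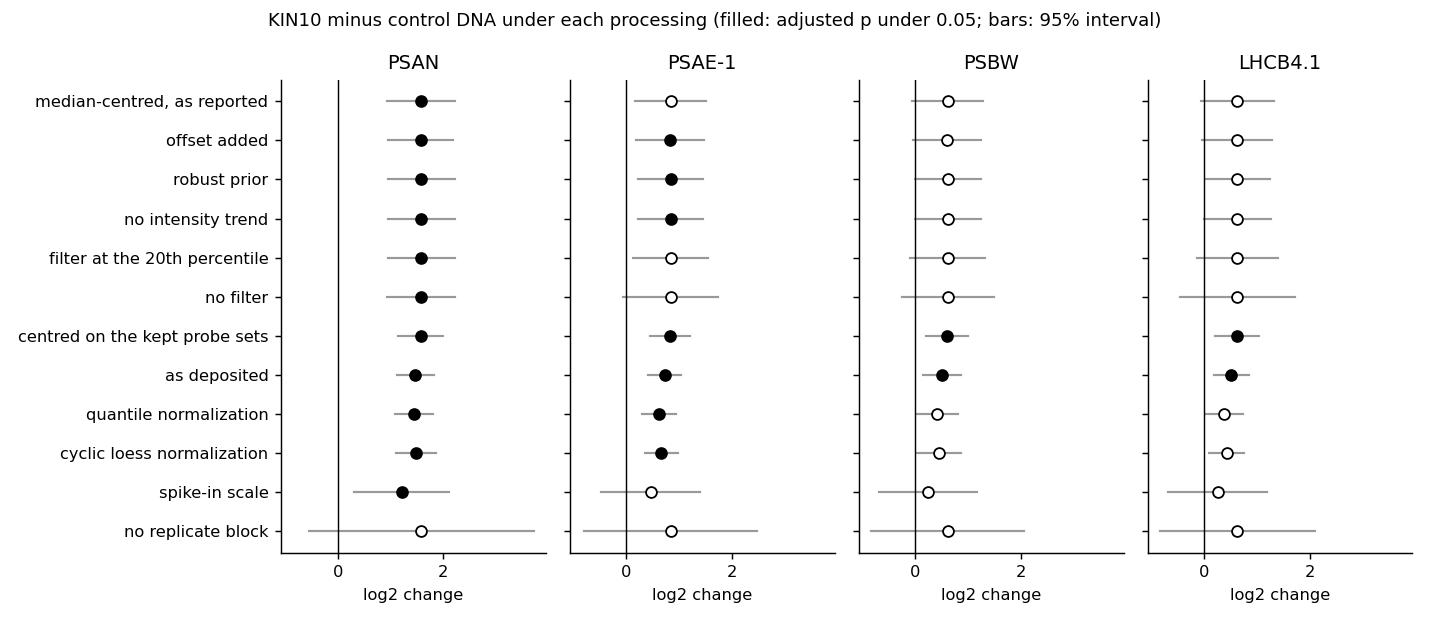
Mean log2 change (KIN10 minus control DNA) of each gene with its 95% interval from limma (bars) under 12 ways of processing, with filled circles for an adjusted p under 0.05. All circles lie to the right of 0, the PSAN circle is open in the fit without the replicate block, and the circles of PSBW and LHCB4.1 are filled in 2 fits each.

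A list of 46 nuclear genes for subunits of the photosystems and their antennae, and factors bound to them, had 8 genes with a probe set of a single name, and all 8 passed the filter. They are the 4 genes above and LHCB4.2, LHCB4.3, PSBY and PSB27. Of the 8, 2 were called higher, none lower and 6 were not called, where 14.7% of all tested probe sets and 18.0% of the brightest group were called higher. One of these calls is PSAN itself, so of the 4 genes outside the set 1 was called. The median log2 change was 0.63 (0.44 in experiment 1 and 0.99 in experiment 2), against 0.03 over all tested probe sets, and was 0.51 for the 4 genes outside the set described here. PSB27, a lumenal factor in the assembly and repair of photosystem II, had signals of 2238.8 and 5640.9 in experiment 1 and of 4333.7 and 8061.1 in experiment 2. It rose 2.34-fold (1.23 ± 0.32, limma adjusted p = 0.000717), with log2 changes of 1.24 and 1.21. PSBY, a small subunit of photosystem II, was at 0.48 ± 0.34 (limma adjusted p = 0.310).

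The LHCB4 proteins have 3 genes, and all were measured. LHCB4.2 had signals of 3388.1 and 3965.3 with control DNA and KIN10 in experiment 1, and of 6321.4 and 9878.3 in experiment 2. LHCB4.3 had signals of 939.6 and 920.2 in experiment 1 and of 571.8 and 686.8 in experiment 2. The centred log2 changes were 0.23 and 1.04 for LHCB4.1, 0.14 and 0.96 for LHCB4.2 and -0.12 and 0.58 for LHCB4.3. The test called none of them, with limma adjusted p-values of 0.168, 0.197 and 0.584, and none had an unadjusted p under 0.05. Each had the higher change in experiment 2 on this scale. Probe sequences were not used here, so signal shared between these related transcripts was not checked. For PSAE-1 the closely related gene PSAE-2 is not analysed here, and the same holds.

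**Figure D4:**
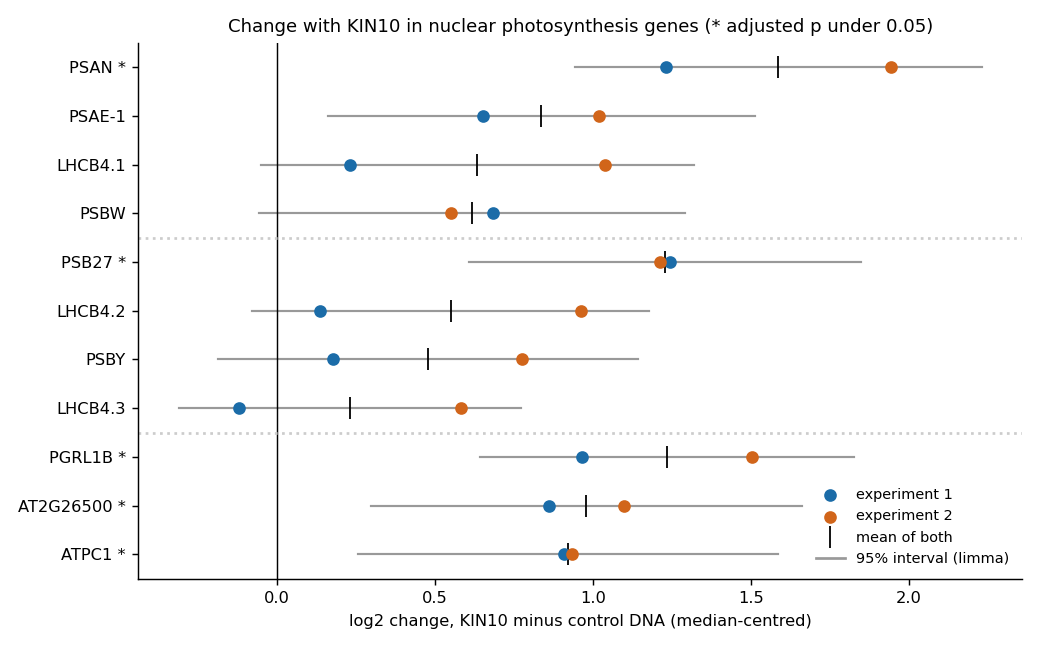
Log2 change (KIN10 minus control DNA, median-centred) in experiment 1 (blue), experiment 2 (orange) and on average (tick), with the 95% interval from limma (grey), for the 4 genes (top), the other genes of the photosystem list (middle) and the list for electron transport and ATP synthase (bottom). An asterisk marks an adjusted p under 0.05. The lowest value is that of LHCB4.3 in experiment 1 (-0.12) and the highest that of PSAN in experiment 2 (1.94).

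The lists of other nuclear genes gave few values. In the list for electron transport and ATP synthase 3 of 14 genes were measured and all 3 were called higher, with a median change of 0.98, against 14.7% called higher and a median of 0.03 over all tested probe sets. PGRL1B, which acts in cyclic electron flow around photosystem I, rose 2.35-fold (1.24 ± 0.30, limma adjusted p = 0.000333), and its log2 changes were 0.97 and 1.50. AT2G26500 rose 1.97-fold and ATPC1, the gamma subunit of the chloroplast ATP synthase, 1.89-fold. Of 15 genes of chlorophyll synthesis 3 were measured. CHLM, a methyltransferase of the magnesium branch, rose 1.92-fold, GSA1, which makes the precursor aminolevulinate, fell by 0.82 on the log2 scale, and PORB, a protochlorophyllide reductase, had a change of 0.21 ± 0.27. Neither of the 2 measured of 12 genes for photosystem assembly and antenna import was called by limma or had an unadjusted p under 0.05. The smaller mean change was that of AT1G22700 (-0.09 ± 0.29), with -0.48 in experiment 1 and 0.31 in experiment 2. None of the 8 listed regulators of photosynthesis genes had a probe set with a single name.

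The plastid-encoded photosystem genes were all measured, 20 of 20. Of these 1 was called higher, 2 lower and 17 were not called, where 14.7% of all tested probe sets were called higher and 15.5% lower. The median change was 0.34, against 0.63 for the nuclear list and 0.03 over all tested probe sets. In experiment 1 the medians were 0.35 for the plastid list and 0.44 for the nuclear list, and in experiment 2 0.27 and 0.99. Without the 4 genes described here the nuclear median was 0.51. The difference between the lists was not tested. The reaction centre gene psbA was higher (0.89 ± 0.34, limma adjusted p = 0.0343), with log2 changes of 0.31 and 1.46. Lower calls were made for psbK (limma adjusted p = 0.0168) and psbI (-0.86 ± 0.34, limma adjusted p = 0.0401). Their changes had opposite signs in the experiments (0.29 and -2.29 for psbK, 0.34 and -2.06 for psbI). Each SE lies close to a common trend, so it hardly reflects the gap between the experiments for a single gene. None of the 4 nuclear genes changed sign between the experiments on the centred values. Of the 20 plastid genes 14 were also higher in both experiments, as were 39.0% of all tested probe sets. The nuclear gene LHCB4.3 did change sign (-0.12 and 0.58). With control DNA psbA had a signal of 36718 in experiment 1 and 3645.7 in experiment 2. For psbK these were 32819.2 and 30987.5, and for psbI 18538.1 and 18842.3. The smallest mean change was that of psbT (-0.04 ± 0.30), whose changes also had opposite signs (0.68 in experiment 1 and -0.75 in experiment 2). Over all these lists 36 genes were measured and 10 called in either direction (27.8%), a share near the 30.2% of all tested probe sets, and without the block limma called none of the 36, with none at an unadjusted p under 0.05 and 0.619 as the lowest adjusted p.

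The probe sets most like each gene were taken as those with the smallest Euclidean distance over the 4 centred log2 signals, level included, among the tested probe sets with a single name. With 4 arrays this is a coarse measure. Nearest to PSAN were APG8A (ATG8A, an autophagy protein, distance 0.75), AT4G13530 (0.84) and ALDH6B2 (0.88). For PSAE-1 they were PIFI (0.20), AT1G13990 (0.24) and AT3G30390 (0.39), and for PSBW they were AT5G24210 (0.22), the plastid-encoded photosystem I gene psaI (0.32) and RBP45B (0.33). LHCB4.1 was nearest to AT5G43260 (0.26), AT4G01150 (CURT1A, a thylakoid curvature protein, 0.41) and the lipocalin gene TIL (0.46). The distance uses the control and KIN10 signals together, so a change like that of the gene is built into the choice of its neighbours, and those of PSAN had log2 changes of 1.17 to 2.18. The distances of PSAN to its neighbours were larger than those of the other 3 genes to theirs.

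Depth in the sense of read counts does not apply to arrays, and their number limits the precision. The median signal of an array ran from 275.5 to 522.15, while the highest signal of any probe set ran from 65105.5 to 81268.0, above all values of the 4 genes. KIN10 is not the single name of any probe set in the annotation, so the transfection could not be checked on the arrays. Of 25 listed markers of mesophyll, guard cells, epidermis, phloem, xylem and trichomes, 3 had a probe set with a single name, all from the guard cell list of 5, and none of the 3 was at 0. Their summed signal was 718.6 and 329.6 with control DNA and 775.1 and 217.8 with KIN10. FMA, the guard cell marker that passed the filter, had a change of -0.45 ± 0.37 and was not called. The labelled cell type was therefore not checked against listed mesophyll markers.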

How the data were processed

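Biotin-labelled RNA (8 ug per array) of 4 protoplast samples was hybridized to Affymetrix arrays. The values deposited by the authors are linear signal intensity values, 1 per probe set; GCOS 1.0 is the tool named in the submitters' processing notes, whose settings are not given in the labels. Trimmed by 2% at both ends, the mean signal was 1500.13 on 3 arrays and 1500.15 on KIN10 array 2, so the arrays had been scaled alike. The table has no column beyond these 4 samples.

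From these, 1 value at 0 was set to the smallest positive value of its array, log2 was taken, and every array was set to a median of 0 over the 22746 non-control probe sets. Probe sets below the 40th percentile of mean log2 signal (9098) were removed. limma 3.58.1 in R 4.3.3 (lmFit, eBayes with an intensity trend, experiment as block, 1 residual degree of freedom) gave p-values with Benjamini-Hochberg adjustment over 13648 probe sets, and calls at an adjusted p under 0.05. The prior had 1311 degrees of freedom, so each SE lies close to a common trend; it was 6.10 to 9.67 under 4 other scalings and infinite on the spike-in scale and with the offset, and the calls of 3 of the genes differed between these fits. The pairing comes from the design text, and arrays of 1 experiment deviated together from their group means (Pearson r 0.705 across probe sets). The alternatives changed scaling, filter, an offset of 19.3 on each signal, variance model, block and arrays. The spike-in scale used 18 probe sets.

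Names came from the platform annotation, updated through Entrez numbers in a RefSeq table (TAIR10.1). Of the non-control probe sets 13513 had a single name, 503 several and 8730 none in the tables used, and 13436 single names matched the RefSeq table. Listed genes were matched by locus, and plastid genes by symbol. The named genes are the 4 members, all measured genes of the nuclear photosystem list, up to 3 called genes with the largest change and the gene with the smallest change of each other list, and the 3 nearest probe sets of each member. FMA, GC1 and MUTE were added after their values were seen. The members, lists and alternatives were chosen with earlier results of these data known, so lists are described by counts and medians and not tested. Sequences and coordinates were not used here.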

Additional observations from a re-analysis of the deposited data

How the results depend on the processing

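The values reported above come from a fit with the experiment as a block. Without the replicate block limma called 173 probe sets instead of 4117, 70.5% of them higher instead of 48.7%, and PSAN kept its change of 1.59 but had an adjusted p of 0.619; that fit changed no other call of the 4 genes. In the fits on 3 arrays, which have no block, the number called ran from 85 to 869, the change of PSAN from 0.22 to 2.96, that of PSAE-1 from 0.084 (without KIN10 2) to 1.59 (without KIN10 1), that of PSBW from 0.41 to 0.82, that of LHCB4.1 from -0.056 (without KIN10 2) to 1.32, and the list median from 0.033 to 1.55. These fits have 3 arrays, and the lone array is assumed to vary like the other group. PSAE-1 was called in 7 of the alternatives, at 0.82 centred on the kept probe sets, 0.72 as deposited, 0.62 after quantile and 0.66 after cyclic loess normalization, 0.83 with the offset added, and 0.84 with a robust prior and without the intensity trend. PSBW and LHCB4.1 were called centred on the kept probe sets (0.61 and 0.62) and as deposited (0.50 and 0.52). The cause was not tested. On the spike-in scale 22.5% of the calls were higher, against 48.7%. With the block kept, PSAN was called in every one of 11 fits (log2 change 1.21 to 1.59, limma adjusted p from 5.35e-06 to 0.0354). The mean change of each of the 4 genes was above 0 in those fits. All of them use the same 4 arrays, and another filter or variance model leaves the log2 change as it was. Arrays give no read depth, and 2 per group leave 1 residual degree of freedom.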
